A study of Mus musculus with 10 samples.

Results

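A set of 10 genes for leukocyte signalling and actin regulation, of 40690 genes in the count table, are described here in the ventricles of naive and sham-operated mice. They are Coro1a, Fermt3, Lcp1, Was, Arhgdib, Capg, Vav1, Dock2, Inpp5d and Ptpn6, and each was found by its symbol under 1 Ensembl identifier. The 10 were proposed with the sham and naive values of these same libraries known, so their difference between the groups is given as a description and no test is attached to it. Polyadenylated RNA was sequenced from heart ventricles of male C57BL/6 mice aged 10 weeks, 5 naive and non-operated and 5 with a sham operation, the surgery without the injury that serves as control in studies of ischemia-reperfusion. No transgene or drug is named for either group, and how long after surgery hearts were taken is not given here. The comparison asks how ventricles differ after the control surgery alone. Libraries held 9683181 to 17577906 counted reads in naive and 10654107 to 21537135 in sham samples. TMM factors, which scale libraries for composition, were 0.870 to 0.975 in naive and 1.04 to 1.15 in sham libraries, without overlap.

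These proteins carry signals from the surface of blood-derived cells to their actin skeleton. When a receptor of a macrophage, neutrophil or lymphocyte is engaged, the exchange factors Vav1 and Dock2 load Rac with GTP, and WASP, the product of Was, switches on the branching complex Arp2/3. Coronin 1A, L-plastin (Lcp1) and CapG remodel, bundle and cap the filaments, kindlin-3 (Fermt3) activates integrins, and RhoGDI2 (Arhgdib) holds small GTPases inactive. The phosphatases SHIP1 (Inpp5d) and SHP-1 (Ptpn6) restrain the same signals. Most of these genes have a relative that heart muscle, endothelium or fibroblasts also use, and these forms are known mainly from leukocytes. A change in the number of cells and a change in RNA per cell cannot be told apart in these bulk samples.

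RefSeq promoter windows on GRCm38.p6, of 250 bases before and 50 from the start on, were found for 10 of 10 genes, 14 windows in all. A short ETS motif of the PU.1 type, GAGGAA, searched on both strands, lay in 5 of the 14 windows (35.7%) and in 28.3% of all 32851 windows. In 4 of these, of Dock2, Inpp5d, Vav1 and Was, a copy began within 25 bases of the start, a limit chosen after the matches were seen; 6.14% of all windows had such a copy. Those 4 stretches are shown because they share this feature, and that of Capg, the gene with the largest fold, is shown beside them as one without a match. Each runs 5′ to 3′ from 120 bases before the start to 25 bases from it on, with GAGGAA or its reverse complement TTCCTC in capitals. The positions are chr11:34783881-34784025 (minus strand) for Dock2, chr1:87620192-87620336 (plus) for Inpp5d, chr17:57278980-57279124 (plus) for Vav1, chrX:8090467-8090611 (minus) for Was and chr6:72549527-72549671 (plus) for Capg.
Dock2: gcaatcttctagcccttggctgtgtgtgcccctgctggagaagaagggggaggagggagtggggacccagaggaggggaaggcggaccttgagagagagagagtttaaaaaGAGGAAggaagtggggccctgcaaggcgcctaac
Inpp5d: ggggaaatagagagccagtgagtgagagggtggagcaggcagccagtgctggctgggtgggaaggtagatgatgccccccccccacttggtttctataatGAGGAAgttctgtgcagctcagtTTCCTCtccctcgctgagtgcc
Vav1: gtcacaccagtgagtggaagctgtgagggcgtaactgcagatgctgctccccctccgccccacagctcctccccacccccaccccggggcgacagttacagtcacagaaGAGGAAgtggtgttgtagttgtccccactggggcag
Was: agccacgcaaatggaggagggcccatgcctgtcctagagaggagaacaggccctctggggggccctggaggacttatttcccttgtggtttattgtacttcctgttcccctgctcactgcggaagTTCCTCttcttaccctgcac
Capg: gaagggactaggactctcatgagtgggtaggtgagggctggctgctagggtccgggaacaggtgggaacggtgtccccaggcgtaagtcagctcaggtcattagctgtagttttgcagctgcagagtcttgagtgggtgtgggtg

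In Inpp5d the motif occurred on each strand, beginning 20 bases before the start and 3 bases after it. The copy began 9 bases before the start in Dock2, 11 bases before it in Vav1 and, on the opposite strand, 5 bases after it in Was. The RUNX motif TGTGGT was in windows of 3 genes, Arhgdib, Fermt3 and Was (21.4% of the windows against 16.8% of all), and the Sp/KLF motif GGGCGG in windows of 5 (42.9% against 35.7%). The C/EBP motif TTGCNNAA and the AP-1 motif TGANTCA were in none of the 14 windows and in 10.8% and 7.81% of all. TATAAA was in a single window (7.14% against 13.6%), of Arhgdib. These are matches of letters, which overlap no other searched motif in the stretches shown, and say nothing of binding.

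All 10 genes had more RNA in sham than in naive ventricles, from 1.98-fold for Arhgdib to 4.17-fold for Capg, with a median log2 fold change of 1.73. The median over the 13622 genes tested was -0.05. For each of the 10 the lowest sham library exceeded the highest naive one, as it did in 13.6% of the genes tested, while 9.18% had the reverse order. By edgeR's quasi-likelihood test 32.7% of the genes were called, 17.2% higher and 15.5% lower, and the 10 are among the higher ones. Since the same contrast chose the genes, nothing is read from either count. The sum of the 10 genes ran from 107.5 to 117 CPM (read counts scaled to library size and TMM factor) in naive and from 302 to 388 CPM in sham libraries. Every gene was tested, and the thinnest library value was 29 reads, for Vav1.

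**Figure D1:**
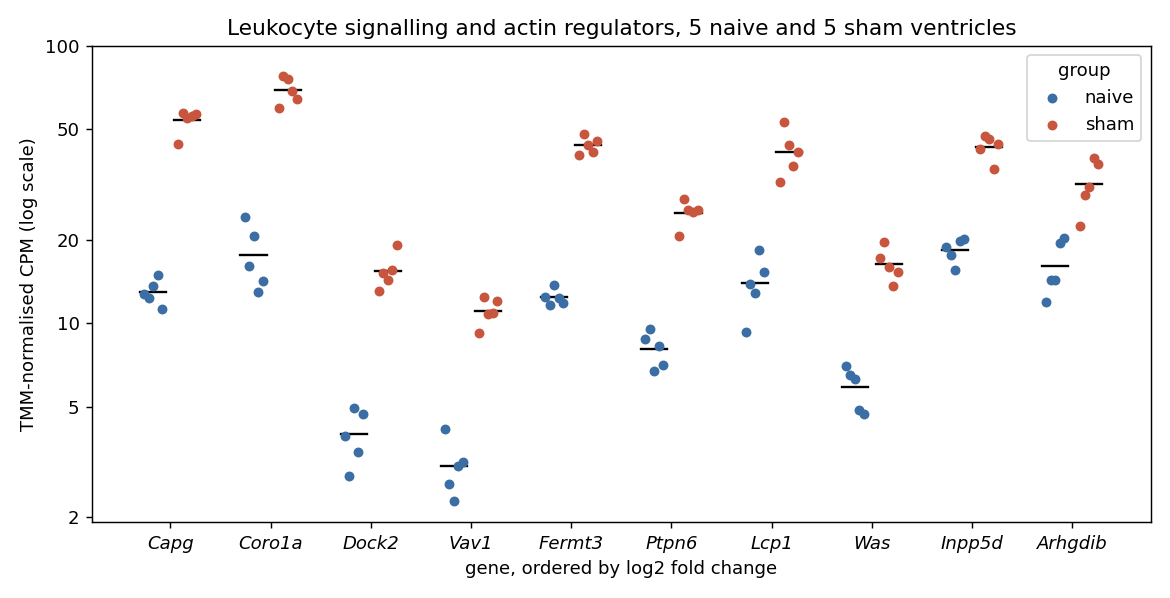
TMM-normalised CPM, on a log axis, of the 10 genes in each of 5 naive (blue) and 5 sham (red) libraries, with group means as black bars; genes run from the largest to the smallest log2 fold change. Each gene's sham libraries lie above its naive libraries, with the narrowest gap in Arhgdib (22.4 against 20.4 CPM).

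Among the actin-binding members, Capg (chromosome 6, 72544391 to 72562983, plus strand of GRCm38), which caps the fast-growing filament end, stood at 12.7, 12.3, 13.6, 14.9 and 11.2 CPM in naive libraries 1 to 5. In sham libraries 1 to 5 it stood at 44.2, 57.2, 55.1, 56.0 and 57.1 CPM, so that sham 1 was low and the other 4 lay close together. The group means were 12.9 ± 1.38 and 53.9 ± 5.51 CPM (SD, n = 5), and the log2 fold change was 2.06 ± 0.10 (SE). Even the lowest sham library held 2.97 times the highest naive one.

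Coro1a (chromosome 7, 126699773 to 126707787, minus strand), which binds filaments beneath the leukocyte membrane, had 24.1, 16.1, 20.7, 12.9 and 14.2 CPM in naive libraries. In sham libraries it had 59.6, 77.6, 75.8, 68.9 and 64.6 CPM. Its naive libraries were spread widely, with naive 1 highest, and its sham libraries narrowly: the SD was 26.6% of the mean in naive and 10.9% in sham. The log2 fold change was 1.99 ± 0.15.

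Lcp1 (chromosome 14, 75131101 to 75230842, plus strand) encodes the leukocyte form of the bundling protein plastin. It was at 9.28, 13.9, 12.9, 18.4 and 15.3 CPM in naive and at 32.3, 53.3, 44.1, 36.8 and 41.5 CPM in sham libraries. Naive 1 and sham 1 were the lowest of their groups, and no sham value reached down to the highest naive one. The log2 fold change was 1.56 ± 0.16.

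Was (chromosome X, 8081453 to 8090498, minus strand) encodes the activator of Arp2/3 named for Wiskott-Aldrich syndrome. After removal of the group means it varied most like Coro1a over the 10 libraries (Pearson's r = 0.70). The likeness lay in the naive libraries (r = 0.86). In sham libraries it was 0.27, and Lcp1 was the member most like Coro1a (0.86). The naive libraries of Was held 7.02, 6.52, 6.32, 4.86 and 4.74 CPM and its sham libraries 17.2, 19.7, 16.0, 13.6 and 15.4 CPM. Naive 1 was the highest naive library, as for Coro1a and Vav1, and sham 4 the lowest sham library, as for Inpp5d. The log2 fold change was 1.48 ± 0.14.

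Fermt3 (chromosome 19, 6998958 to 7019469, minus strand), the kindlin of blood cells, varied least within the groups. It had 12.5, 11.7, 13.8, 12.3 and 11.8 CPM in naive libraries and 40.6, 48.0, 44.1, 41.6 and 45.5 CPM in sham libraries. The SD was 6.61% of the naive and 6.79% of the sham mean, and the log2 fold change 1.83 ± 0.09.

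The regulators of small GTPases ran from 1.96 for Dock2 down to the lowest of the 10, Arhgdib. Dock2 (chromosome 11, 34226815 to 34783892, minus strand), a Rac exchange factor needed for leukocyte migration, had 3.93, 2.83, 4.98, 3.45 and 4.74 CPM in naive and 13.1, 15.1, 14.3, 15.6 and 19.2 CPM in sham libraries. Sham 5 was high, and the log2 fold change was 1.96 ± 0.16 (SE). Vav1 (chromosome 17, 57279100 to 57328031, plus strand), which is switched on by tyrosine phosphorylation, had 4.16, 2.65, 2.29, 3.06 and 3.16 CPM in naive and 9.27, 12.4, 10.8, 10.9 and 12.0 CPM in sham libraries. Naive 1 was high and sham 1 low, and the log2 fold change was 1.88 ± 0.16. Arhgdib (chromosome 6, 136923655 to 136941899, minus strand) differed least: it had 11.9, 14.3, 14.3, 19.4 and 20.4 CPM in naive and 22.4, 29.0, 31.0, 39.5 and 37.7 CPM in sham libraries. Its lowest sham library, sham 1, was 1.10 times its highest naive library, naive 5, and its log2 fold change was 0.99 ± 0.17. Of its exon bases 8.0% are shared with Pde6h on the other strand, and reads without strand do not separate the 2 genes.

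Of the inhibitory phosphatases, Ptpn6 (chromosome 6, 124720707 to 124738714, minus strand) removes phosphate from tyrosines of activating receptors. It had 8.80, 9.54, 6.72, 8.31 and 7.07 CPM in naive and 20.6, 28.1, 25.7, 25.2 and 25.6 CPM in sham libraries. Sham 1 was low, the groups stood well apart, and the log2 fold change was 1.63 ± 0.12. Of its exon bases 7.0% overlap Gm20531 on the other strand. Inpp5d (chromosome 1, 87620312 to 87720507, plus strand) cleaves the lipid product of PI3 kinase. It had 18.9, 17.7, 15.6, 19.7 and 20.2 CPM in naive libraries and 42.4, 47.5, 46.2, 36.0 and 44.5 CPM in sham libraries. With a log2 fold change of 1.23 ± 0.10 it was the second lowest of the 10, and sham 4 was its lowest sham library.

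Per kilobase of exon the order of levels differed from that of the read counts. In naive libraries Arhgdib led at 9.42 ± 2.14 CPM per kb, ahead of Coro1a at 6.33 ± 1.69 and Capg at 5.12 ± 0.544. Ptpn6, Was, Inpp5d and Fermt3 followed at 2.89 to 2.15 CPM per kb, with SDs of 0.142 to 0.433. Lcp1 stood at 1.47 ± 0.353, Vav1 at 0.831 ± 0.191 and Dock2 at 0.349 ± 0.0779. In sham libraries Coro1a, at 24.9 ± 2.71, and Capg, at 21.3 ± 2.18, stood above Arhgdib at 18.7 ± 4.03. Among these 3, neighbours in the order overlapped in mean ± SD in both groups, as did neighbours in the run from Ptpn6 to Fermt3 in naive libraries, whereas Arhgdib and Capg did not overlap in naive libraries. The exon length covers every annotated exon. With the median coding transcript length instead, Dock2, at 4.09 CPM per kb, was level with Vav1, at 3.94, in sham libraries. In naive libraries the middle of the order then began with Fermt3, followed by Inpp5d at 4.46, Lcp1 at 3.89, Ptpn6 at 3.63 and Was at 2.79 CPM per kb.

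Relatives of the members, listed for their family and not for how they moved, did not share one direction. Of 25 tested relatives of 30 listed, 5 rose, 6 fell and 14 stayed short of the threshold. Over all tested genes 17.2% were higher and 15.5% lower. The median of the relatives was -0.08 on the log2 scale, against -0.05 over all genes. Scaled by library size alone 10 relatives were higher and 0 lower, and the median of all tested genes moved from -0.05 to 0.22. Of the ubiquitous partners, Fermt2, the kindlin of muscle and matrix-bound cells, fell from 119 ± 10.4 to 96.6 ± 3.71 CPM (-0.30 ± 0.08, adjusted p = 0.00887 by edgeR's quasi-likelihood test). It did not pass with library size alone (adjusted p = 0.832) or without a filter (adjusted p = 0.0505). SHP-2 (Ptpn11), which in contrast to SHP-1 transmits growth factor signals, fell from 335 ± 15.3 to 255 ± 27.7 CPM (adjusted p = 0.00276, but 0.382 with library size alone). Inppl1, the SHIP of most tissues, was at -0.28 ± 0.10 and passed narrowly (adjusted p = 0.0373); the call ended when any of 7 single libraries was left out (naive 1, 2 or 3, sham 2, 3, 4 or 5, adjusted p of 0.0675 to 0.104), with library size alone (0.983) and without a filter (0.0792). Of its exon bases 20.3% overlap Gm10602.

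Some other relatives rose together with the member of their family. Arhgdia, the RhoGDI of all cells, rose from 311 ± 21.5 to 461 ± 14.2 CPM (0.57 ± 0.08 on the log2 scale, adjusted p = 3.30e-05) beside 0.99 for Arhgdib. Coro1c, the widely expressed coronin, rose from 45.5 ± 2.20 to 68.0 ± 6.08 CPM (0.58 ± 0.08, adjusted p = 5.53e-05). Coro2a had the largest increase of the relatives, from 1.92 ± 0.883 to 8.42 ± 1.76 CPM (2.18 ± 0.27, adjusted p = 1.21e-05). In each of these 3 the sham libraries lay above the naive ones, as in 13.6% of all tested genes. All 3 are among the 4 relatives of smallest p, so nothing is read from this. The coronins did not all rise: Coro6, the most abundant of those listed, fell from 675.9 ± 33.14 to 532.3 ± 65.45 CPM (-0.345 ± 0.091, adjusted p = 0.00851 by edgeR). Coro2b did not pass (adjusted p = 0.509), and Coro7 rose by 0.36 ± 0.09 (adjusted p = 0.00455). Coro6, Coro2b and Coro7 were named after their values were seen. Among the gelsolin relatives of Capg, supervillin (Svil) fell by 0.47 on the log2 scale (adjusted p = 0.00140, 0.178 with library size alone) and gelsolin (Gsn) was at 1652 ± 158 and 1491 ± 184 CPM (adjusted p = 0.286). N-WASP (Wasl) was at 58.6 ± 9.38 and 53.3 ± 9.32 CPM (adjusted p = 0.448), T-plastin (Pls3) at 7.07 ± 3.17 and 8.64 ± 1.97 CPM (0.445) and Dock1 at 50.5 ± 4.52 and 54.7 ± 5.68 CPM (0.385). Vav2 was at 0.14 ± 0.08 and Vav3 at 0.25 ± 0.14, neither past the threshold (adjusted p = 0.218 and 0.198); with library size alone Vav2, Vav3 and Dock1 passed as higher (0.00338, 0.0133 and 0.0131). With limma voom Vav3, Dock1 and Pls3 passed as higher (0.014, 0.0299 and 0.0366) and Gsn as lower (0.0142), and Vav3 passed without naive 1 and sham 4 (0.0394).

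**Figure D2:**
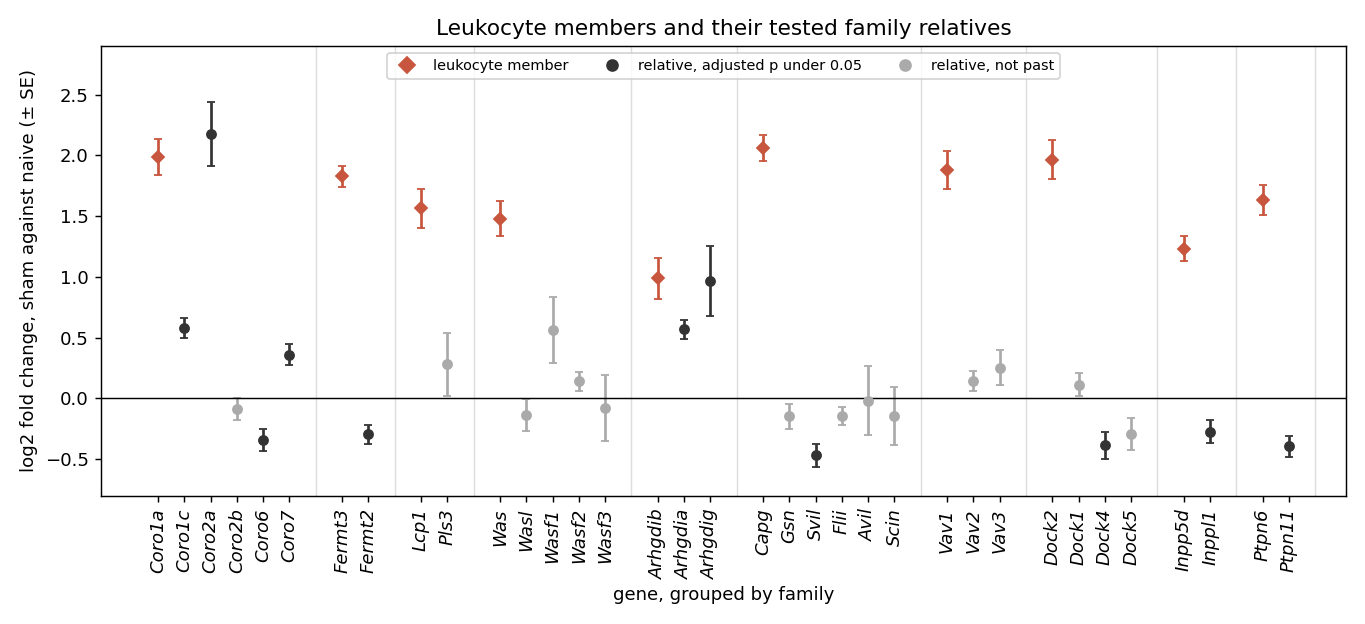
Log2 fold change of sham against naive (± SE, y axis) for each of the 10 genes (red diamonds) and their tested family relatives (circles; dark where the adjusted p was under 0.05, grey where not), grouped by family. The members lie between 0.99 and 2.06; among the relatives Coro2a, at 2.18, lies above that range and Arhgdig, at 0.96, just under it.

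Set against the ubiquitous partner, the leukocyte form took a larger share of the pair in sham libraries, measured as CPM per kb of exon. The members were chosen with their higher sham values known, so the shares are a description only. Kindlin-3 made up 8.63% ± 1.00 of kindlin-2 plus kindlin-3 in naive and 29.0% ± 1.32 in sham (SD, n = 5). WASP made up 20.6% ± 1.26 of itself plus N-WASP in naive and 44.5% ± 3.30 in sham libraries, and SHP-1 6.06% ± 0.869 and 20.9% ± 2.72 of the SHP pair. Coro1a already held 56.6% ± 6.81 of the summed coronin 1 CPM per kb of exon in naive libraries and held 77.9% ± 1.24 in sham. This share lacks Coro1b, which is listed at 0 in all 10 libraries. Capg remained a small part beside gelsolin, at 0.973% ± 0.108 and 4.39% ± 0.825. For RhoGDI2 the groups overlapped, with 4.34% to 8.28% in naive and 6.33% to 10.0% in sham libraries, and Arhgdia rose too. The shares depend on the lengths used: with coding transcripts that of kindlin-3 was 11.8% and 36.6%, and that of Coro1a 44.3% and 68.1%, no longer the larger part in naive libraries.

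**Figure D3:**
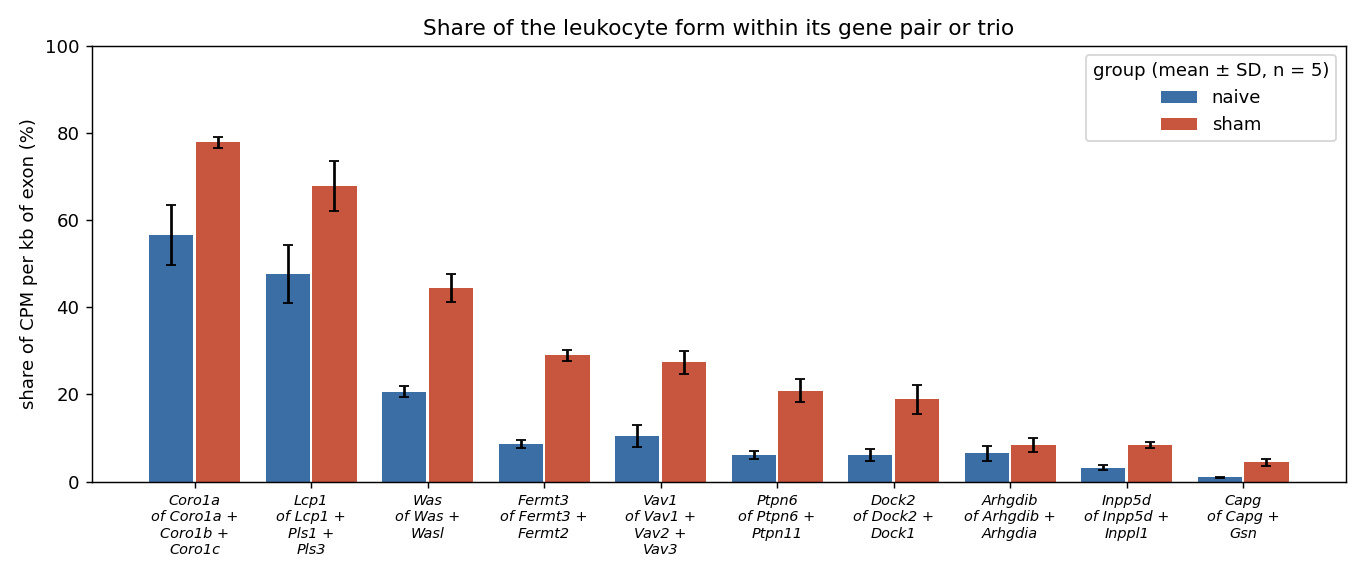
Share (percent, y axis) of the leukocyte form in the summed CPM per kb of exon of its pair or trio, mean ± SD of 5 naive (blue) and 5 sham (red) libraries. The Coro1a and Lcp1 bars are the tallest, and the Arhgdib bars, at 6.45% and 8.35%, differ least as a ratio.

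Other leukocyte genes of the same pathway, from lists chosen by function with earlier results of these libraries known, mostly moved the same way. Of 26 tested regulators of the leukocyte cytoskeleton 23 rose, 1 fell and 2 did not pass (median 1.32). Over all tested genes 17.2% were higher and 15.5% lower. The lists were chosen with results known, so these counts are descriptions. Rac2, the blood cell Rac that Vav1 and Dock2 load, rose from 6.54 ± 1.11 to 31.6 ± 3.31 CPM (2.27 ± 0.13, adjusted p = 4.65e-09 by edgeR). Hmha1, a GTPase-activating protein, rose by 1.56 ± 0.08, and the leukocyte myosins Myo1g and Myo1f by 2.05 ± 0.12 and 2.02 ± 0.13. The 1 lower gene was the exchange factor Arhgef6 (-0.50 ± 0.14, adjusted p = 0.0113, 0.261 with library size alone), named after its value was seen.

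Among 26 tested leukocyte signalling genes 24 rose and 0 fell, beside 17.2% and 15.5% of all tested genes, and their median was 1.57. The PI3 kinase subunit Pik3r5 rose from 3.66 ± 0.974 to 20.2 ± 2.97 CPM (2.45 ± 0.17, adjusted p = 3.00e-08). Dok3 rose by 1.84 ± 0.11 and Cyth4 by 1.65 ± 0.09. The pan-leukocyte phosphatase Ptprc, or CD45, rose from 3.44 ± 0.969 to 11.8 ± 2.79 CPM (1.75 ± 0.21, adjusted p = 7.95e-06), close to the median of the 10. The 2 that did not pass were the T cell kinases Zap70 (-0.16 ± 0.35, adjusted p = 0.760) and Lck (0.27 ± 0.43, adjusted p = 0.664), both under 1 CPM in each group and named after their values were seen.

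Receptors that recruit the 2 phosphatases rose in 12 of 13 tested cases, with 0 lower (median 1.91), beside 17.2% and 15.5% of all tested genes. The 1 that did not pass was Pecam1, at 133 ± 36.9 and 121 ± 17.2 CPM (adjusted p = 0.569 by edgeR), named after its value was seen. Pirb, an inhibitory receptor of myeloid and B cells, rose from 5.19 ± 0.836 to 26.4 ± 2.97 CPM (2.36 ± 0.13, adjusted p = 3.98e-09). The inhibitory Fc receptor Fcgr2b rose by 1.95 ± 0.13 and Cd300lf by 4.17 ± 0.34, from 0.301 ± 0.209 to 6.06 ± 1.71 CPM. Cd72 rose by 2.74 ± 0.24, but 41.6% of its exon bases overlap Tesk1.

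Genes of the actin machinery that every cell uses were divided. Of 10 Arp2/3 subunits 7 rose, 2 fell and 1 did not pass (median 0.36), while 17.2% of all tested genes were higher and 15.5% lower. Without naive 2 the higher subunits numbered 4. Arpc1b rose from 52.8 ± 5.04 to 145 ± 12.4 CPM (1.46 ± 0.09, adjusted p = 1.27e-08), Arpc4 by 0.73 ± 0.10 and Actr3 by 0.61 ± 0.10. In contrast the second Arp3 gene, Actr3b, fell from 38.9 ± 2.82 to 24.8 ± 3.30 CPM (-0.65 ± 0.10, adjusted p = 1.17e-04), and Arpc5l, named after its value was seen, changed by -0.40 ± 0.09 (adjusted p = 0.00271, but 0.242 with library size alone). Among 20 general actin turnover genes 9 rose, 2 fell and 9 missed the threshold, with a median of 0.22: beta-actin (Actb) rose by 1.11 ± 0.10, thymosin beta 10 (Tmsb10) by 1.58 ± 0.14, cofilin 1 (Cfl1) by 1.03 ± 0.11 and Cap1 by 0.86 ± 0.10. The 2 lower ones, Tln2 (-0.32 ± 0.08) and Cap2 (-0.48 ± 0.08), are talin and cyclase-associated protein forms of heart muscle, were named after their values were seen and did not pass with library size alone (adjusted p = 0.715 and 0.0964).

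**Figure D4:**
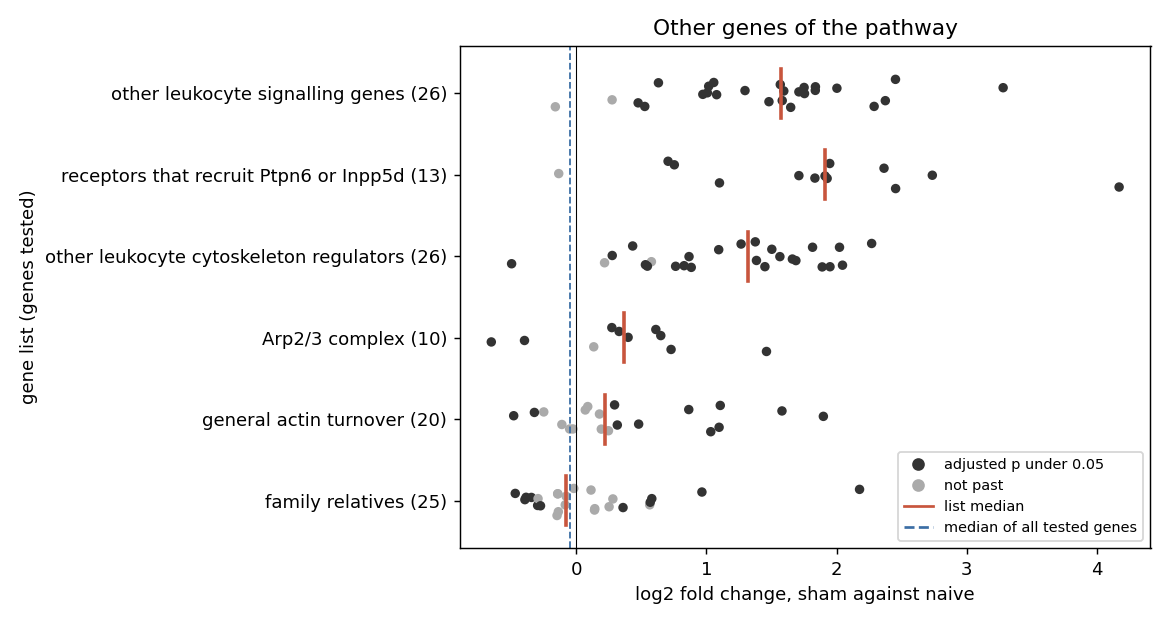
Log2 fold change of sham against naive (x axis) of each tested gene in 6 lists (y axis, genes tested in brackets), dark where the adjusted p was under 0.05; red bars are list medians and the dashed line the median of all tested genes (-0.05). The 3 leukocyte lists have medians of 1.32 to 1.91, the lists of general actin genes 0.22 to 0.36 and the family relatives -0.08.

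Markers of several cell types also moved between the groups, where 17.2% of all tested genes were higher and 15.5% lower. The summed level of 5 macrophage markers (Adgre1, Csf1r, Cd68, C1qa, Mrc1) ran from 196 to 238 CPM in naive and from 549 to 627 CPM in sham libraries, and 5 of 5 rose. Of 5 neutrophil markers 2 were tested and rose, Csf3r by 2.77 ± 0.24 on the log2 scale and S100a9 from 0.293 ± 0.545 to 1.45 ± 0.780 CPM; S100a9 did not pass by DESeq2 (adjusted p = 0.0898) or without any of 7 single libraries (naive 1, 2, 3 or 4, sham 2, 3 or 5; 0.068 to 0.101). Their sum ran from 1.74 to 4.74 CPM in naive and from 14.5 to 31.3 CPM in sham libraries, while the defining genes Ly6g and Retnlg stayed under 0.1 CPM on average. Of 5 T cell markers only Cd4, which mouse macrophages can also carry, was tested (0.15 ± 0.23, adjusted p = 0.648), with sums of 1.29 to 2.86 and 2.50 to 3.29 CPM. Of 4 B cell markers Cd79b was tested and rose, but not without naive 3 or sham 4 (adjusted p = 0.054 and 0.0502), and the 4 NK cell markers were too low to be tested. Of 5 platelet markers 3 were tested and Pf4, which macrophages can also hold, rose (1.37 ± 0.16); Itga2b, at 0.54 ± 0.24 (adjusted p = 0.0993), passed with library size alone, without a filter, with the replicate block, with limma voom, without naive 1 and without naive 1 and sham 4 (0.00106 to 0.0216). Fermt3 is a platelet gene as well, and Gp9 and Ppbp lay at 0.159 to 0.237 CPM. Heart muscle markers were by far the most abundant, with sums of 5 genes of 56540 to 59000 CPM in naive and 43300 to 49650 CPM in sham libraries, and 4 of 5 fell, among them Ryr2 (-0.66 ± 0.13) and Actn2 (-0.42 ± 0.08, which did not pass with library size alone, adjusted p = 0.163). The part of any cell type in the values of the 10 genes was not tested.

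Within the groups the members did not vary as one block. After removal of the group mean from log2 CPM, the 45 pairs of members had Pearson correlations over the 10 libraries from -0.85 to 0.70, with a median of 0.16, and 32 pairs were above 0. These are descriptions, and the libraries share depth and composition. The closest pair was Coro1a and Was (r = 0.70), followed by Fermt3 and Capg (0.61) and Lcp1 and Arhgdib (0.59). In sham libraries the members moved more alike: sham 1 was the lowest of its group for 8 of the 10 and sham 2 the highest for 8. Summed markers of macrophages (549 CPM), neutrophils (14.5 CPM), fibroblasts (241 CPM), dividing cells (16.4 CPM) and mast cells (1.21 CPM) were also lowest in sham 1. Those of macrophages (627 CPM), platelets (40.75 CPM) and mast cells (2.57 CPM) were highest in sham 2. Heart muscle (49650 CPM) and mesothelial markers (19.1 CPM) were highest in sham 1. A link of any of these to the members was not tested.

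In naive libraries the pattern divided the members. In naive 1, Coro1a lay 0.49 and Vav1 0.45 above the group mean on the log2 scale, while Lcp1 lay at -0.55 and Arhgdib at -0.40. In naive 4 the signs of Coro1a (-0.40), Lcp1 (0.43) and Arhgdib (0.30) were exchanged. GC content is 42.9% in Lcp1 and 45.8% in Arhgdib, 48.0% in Vav1 and 54.7% in Coro1a. Across the 10 members the correlation of the deviation with GC content was 0.73 in naive 1, 0.29 in naive 2, 0.18 in naive 3, -0.61 in naive 4 and -0.78 in naive 5, and across all tested genes 0.30, 0.15, 0.09, -0.21 and -0.34 in the same libraries. In sham libraries 1 to 5 it was 0.228, 0.029, 0.377, 0.039 and -0.561 across the members. Across all tested genes it was 0.058, -0.021, -0.045, 0.096 and -0.175 in these sham libraries. A GC correction, tried after seeing the data, left the members between 1.03 and 2.02 in log2 fold change, with Capg still largest and Arhgdib smallest, so the difference between the groups was about as large with it. Of the 45 pairs, 19 varied in the same direction over the naive libraries before the correction and 21 after it. The correction takes out only shifts common to all genes of like GC content. In naive 1 the median deviation of all tested genes was -0.10 under 45% GC and 0.15 at 50% or more. These are smaller than the deviations of Lcp1 and Coro1a, so the counts of pairs cannot decide on GC content, whose part was not tested.

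**Figure D5:**
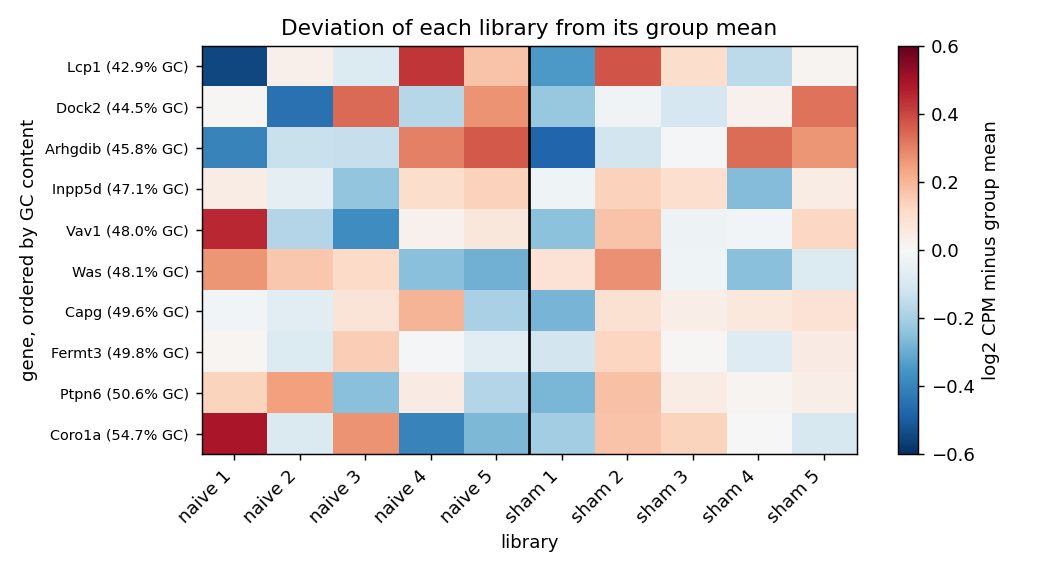
Deviation of log2 CPM from the group mean (colour scale) for each member (rows, from low to high GC content) in each library (columns; the line parts naive from sham). Naive 1 is low in Lcp1 and Arhgdib and high in Coro1a, naive 4 and 5 show the opposite signs for these genes, and sham 1 is low in most rows.

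By likeness of these within-group deviations over the 10 libraries, the 5 nearest of 11645 other genes were Tspan9 (Pearson's r = 0.92 with the mean standardised deviation of the members), Coro1c (0.90), Grn (0.90), 1810055G02Rik (0.89) and Trappc13 (0.89). Of these Grn, the lysosomal growth factor progranulin, rose from 138 ± 6.00 to 300.1 ± 29.5 CPM (1.12 ± 0.09, adjusted p = 8.12e-08), whereas Tspan9 (-0.20 ± 0.08, adjusted p = 0.0678) and Trappc13 (-0.09 ± 0.11, adjusted p = 0.589) did not pass; Tspan9 passed as lower with the replicate block (0.0461) and with the GC correction (0.0183). Their order is that of the largest values among many genes over few libraries.

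Relative to Ptprc, the members fell on both sides. The log2 ratio to Ptprc was higher in sham than in naive libraries by 0.29 for Capg and 0.25 for Coro1a, and lower for Arhgdib (-0.77), Inpp5d (-0.52) and Was (-0.29). The ratio varied by SDs of 0.14 to 0.52 within sham and 0.15 to 0.81 within naive libraries. Only for Arhgdib and Inpp5d was the difference larger than both of its SDs.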

How the data were processed

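Polyadenylated RNA of 10 ventricle samples was sequenced from one end without strand marking, per the labels' protocols. The authors' deposited table holds raw read counts for each Ensembl gene and, as a column of the file header shows, GC content as a percent. Bowtie2, TopHat2 2.1.1, HTSeq, DESeq and edgeR stand in the submitters' processing notes with no role assigned. The annotation release and counting mode are not given here. Of 41264 rows, 574 repeated an identifier and were collapsed to 40690 genes. A count of 3 equalled 0.122 to 0.357 CPM, a limit covering counting error only. The 20 library pairs within groups had chi-square values per degree of freedom of 9.21 or more, so no library was counted as a copy.

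The 13622 genes kept by filterByExpr (minimum count 10, minimum total 15) were scaled with TMM factors and tested by edgeR 4.0.16 (robust quasi-likelihood F test, group alone, 10 samples) in R 4.3.3, with Benjamini-Hochberg adjustment over all of them and a threshold of 0.05. SE is the absolute log2 difference divided by the root of F, and log2 CPM used a prior count of 2. The labels do not say more on how samples are separate, so the p-values reflect only sample-to-sample spread, which may be technical. On simulated data (13472 genes) the test found 54.0% of genes changed 1.5-fold and 80.9% of those changed 2-fold. It found 100% of those changed 4-fold and 97.8% of those changed 8-fold, and 8 of its 161 calls were false. Only 50, 47, 44 and 45 tested genes were changed at these folds, in random directions, with no difference in composition built in. The rates therefore need not hold for the real libraries, where 32.7% of genes were called. Alternatives used DESeq2 1.42.0, limma 3.58.1 (voom), other scalings and filters, a replicate block and each library left out; a GC correction, and naive 1 and sham 4 left out together, were added after seeing the data.

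The members and lists were chosen with earlier results of these data known. Named genes are the members, the 4 genes of smallest p in each list, genes set by name, the 5 nearest by likeness and 2 markers per cell type; others are said to be named after their values were seen, and some items are not reported here. Positions and exon lengths are from GENCODE on GRCm38, and promoters from RefSeq on GRCm38.p6.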

Additional observations from a re-analysis of the deposited data

Results flagged for a closer look

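Capg in sham 1, at 44.2 CPM, lay far below the next sham library (55.1 CPM), with a gap of 0.84 of the range of the 5 sham libraries, above the critical value of 0.71. Of 20 groups examined, 2 for each of the 10 genes, this was the 1 that stood out, and chance flags about 1 in 20. Without sham 1 the log2 fold change of Capg was 2.12 in place of 2.06.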

How the results depend on the processing

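All 10 members were higher in sham under each of the 20 alternatives, with a median log2 fold change from 1.68 without naive 3 to 2.00 with library size alone, and Arhgdib was the smallest in each. Capg was not the largest in each. Vav1 was largest with limma voom, Dock2 without naive 5, and Coro1a without naive 1 and without naive 1 and sham 4 together. With library size alone the median of all genes moved from -0.05 to 0.22, the members lay between 1.25 and 2.33, and 4473 genes were higher and 283 lower (94.0% of calls higher, against 52.6%). In the same setting 10 family relatives were higher and 0 lower, and the lower genes numbered 0 among the other regulators of the leukocyte cytoskeleton, 1 in the Arp2/3 complex and 0 in general actin turnover; Cdh5 turned from -0.215 to 0.055 (adjusted p = 0.687). With limma voom 3269 genes were lower and 9 family relatives higher. With each library left out in turn, 2132 to 2461 genes were higher and 1465 to 2249 lower, and the higher Arp2/3 subunits numbered 4 to 7. The cause of these shifts was not tested. With the replicate number as a block 2592 genes were higher and 2801 lower, against 2342 and 2113, and the members ran from 0.99 to 2.06. Same-numbered samples deviated together with correlations of 0.01 to 0.29, not all above 0.1, and the labels give no pairing, so the numbers were not taken as pairs; naive 1, 4 and 5 correlated best with the sham library of their own number (0.23, 0.29 and 0.29), naive 2 with sham 3 (0.13) and naive 3 with sham 1 (0.07). Without naive 1 and sham 4, chosen after seeing the data, the members ran from 0.85 to 2.15. Depth limits Vav1 most, at 29 to 295 reads per library.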

Other observations

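Of the markers of other cell types, those of dividing cells rose in 3 of 3 cases by edgeR, with Birc5 at 2.81 ± 0.28 (adjusted p = 1.19e-06) and Top2a at 2.40 ± 0.21 (adjusted p = 3.83e-07) in log2 fold change. Fibroblast markers rose in 4 of 5 cases, with Dpt from 48.0 ± 4.76 to 113 ± 17.5 CPM (SD). For comparison with the counts given here, 17.2% of all tested genes were higher and 15.5% lower. Mesothelial markers fell in 2 of 3, with Upk3b at -1.88 ± 0.22 (edgeR adjusted p = 1.01e-05) and Lrrn4 at -1.48 ± 0.29 (adjusted p = 0.00101). Of 5 endothelial markers 3 fell, among them Kdr (-0.55 ± 0.11, adjusted p = 8.14e-04, 0.081 with library size alone) and Cdh5 (-0.21 ± 0.08, adjusted p = 0.0434). The call of Cdh5 was lost with RLE factors (0.0631), without a filter (0.245), without naive 1 and sham 4 together (0.109) and without any of 8 single libraries (naive 3, 4 or 5, sham 1 to 5; 0.0627 to 0.122). Of 2 tested dendritic cell markers Zbtb46, which endothelium also expresses, fell from 26.2 ± 4.96 to 18.5 ± 1.57 CPM (adjusted p = 0.00520, 0.197 with library size alone). Of 2 tested mast cell markers Tpsb2 fell (adjusted p = 0.0296), which was lost without any of 7 single libraries (naive 1, 3 or 5, sham 1, 3, 4 or 5; 0.0546 to 0.0766), and the erythroid marker Hbb-bs did not pass by edgeR (adjusted p = 0.661) but did with limma voom (0.045).

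Some listed genes had few or no counted reads, and were named after their values were seen. Coro1b had 0 counts in all 10 libraries. Arhgap30, a GTPase-activating protein of leukocytes, was at 0.0284 ± 0.0393 CPM in naive and 0.0813 ± 0.0780 CPM in sham samples (SD, n = 5). Actg1, the gene of cytoplasmic gamma-actin, was at 7.29 ± 2.20 and 6.75 ± 2.61 CPM beside Actb at 656 ± 47.3 and 1412 ± 173 CPM, from exons of similar length. The reason for these low counts was not tested.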
